A study of Mus musculus with 16 samples.

Results

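The messenger RNAs of the oxidative phosphorylation machinery were followed in mouse retroperitoneal fat, a depot behind the abdominal cavity. Members were taken by gene symbol alone: subunit genes of complex I (Nduf a, b, c, s and v), complex II (Sdha to Sdhd), complex III (Uqcr and Cyc1), complex IV (Cox4 to Cox8), complex V (Atp5), and Cycs. The rule found 73 genes, measured by 101 probe sets, of the 8251 genes on the array. It also took Ndufaf1 and Ndufaf4, which help to assemble complex I, and Cox7a2l, a relative of Cox7a2. A gene with several probe sets is represented by the brightest one (highest mean in log2 units). Of the 73 genes 67 passed the filter on low signal and were tested among 5686 genes: 28 of 31 in complex I, 4 of 4 in complex II, 8 of 8 in complex III, Cycs, 13 of 15 in complex IV and 13 of 14 in complex V. Atp5j2, Cox5a, Cox8a, Ndufa12, Ndufc2 and Ndufs4 lay under the filter.

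Oxidative phosphorylation takes place in the inner mitochondrial membrane. Complexes I and II take electrons from NADH and succinate, complex III passes them to cytochrome c, and complex IV hands them to oxygen. Protons pumped by complexes I, III and IV drive ATP synthesis by complex V. Several complex IV subunits exist as a widely expressed form and as a form of heart and skeletal muscle, and some of the muscle forms are also made in brown fat.

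All mice had been gonadectomised (GDX). Controls received vehicle, and the other mice a subcutaneous dose of 0.1 mg dihydrotestosterone (DHT), a strong natural androgen, at 6 times that ran from 1 and 3 h over 6 and 12 h to 18 and 24 h before necropsy. Each sex had 8 Affymetrix arrays, 2 of vehicle and 1 of each DHT time, so that there were 16 arrays in all. The vehicle labels carry a time of 24 h. The labels name no strain or age. Per the labels, fat was collected from all mice of a group, so that an array may hold pooled animals. Whether the vehicle arrays within a sex stem from different mice is not stated, so the p-values below reflect the spread among these samples and that spread may be technical. In whole tissue, fewer cells of a type and less RNA per cell cannot be told apart.

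Deposited values are linear MAS5 signals, and median signals were 184 to 220 over the arrays. Replicate 2 of male vehicle stands apart and is called the muscle-rich array: all 25 tested skeletal muscle markers had their highest signal there, 15 of 16 adipocyte markers and 13 of 13 macrophage markers their lowest. Of all genes tested 26.4% had their highest and 32.7% their lowest signal on this array. The comparisons are therefore given for 16 arrays and for the 15 arrays without it. The female array at 12 h had a mean log2 signal of 13.75 over 5 exocrine pancreas markers, against at most 10.13 on the other female arrays. Adiponectin (Adipoq), the fat cell hormone that defines adipocytes, had signals of 19206 to 31645 on the 15 arrays and 1946 on the muscle-rich array. No kidney marker passed the filter (9 of 11 were on the array). Adrenal markers, 6 tested, had mean log2 signals of 7.83 to 8.84 over all arrays.

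On the muscle-rich array the subunits differed by kind. Cox6a2, the heart and muscle form of subunit VIa of complex IV, had a signal of 22625 on that array. On the 7 other male arrays the lowest Cox6a2 signal was 505, the median 922 and the highest 2296, and on the 8 female arrays they were 266, 749 and 1308. The muscle-rich array was thus at 19.8 times the average of the 7 other male arrays and above every other array. Cox6a1, the widely expressed form of the same subunit, showed the opposite order: 1773 on the muscle-rich array, 12068 to 17041 on the 7 other male arrays (median 15353) and 9859 to 14590 on the female arrays (median 12210). Its ratio was 0.117, and the muscle-rich array lay below every other one.

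Cox7a1, the heart and muscle form of subunit VIIa, had a signal of 3144 on the muscle-rich array, against 90.4 to 194 on the other male arrays (median 140) and 73.1 to 111 on the female arrays (median 92.4). The ratio to the other male arrays was 21.0. The filter on low signal used all 16 arrays, and Cox7a1 passed it only with the muscle-rich array. Cox7a2, the widely expressed form, had 8399 there and 7035 to 8522 on the other male arrays, a ratio of 1.09, and was therefore within their range. Cox8b, the heart and muscle form of subunit VIII, had a ratio of 3.61, with 9318 on the muscle-rich array. Cox8a, its widely expressed counterpart, lay under the filter with signals of 8.34 to 58.6 on all 16 arrays. Cox6b1, the widely expressed form of subunit VIb, had a ratio of 1.19, and Cox6b2, a form known from testis, had 0.343 and its lowest signal of all arrays there.

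**Figure D1:**
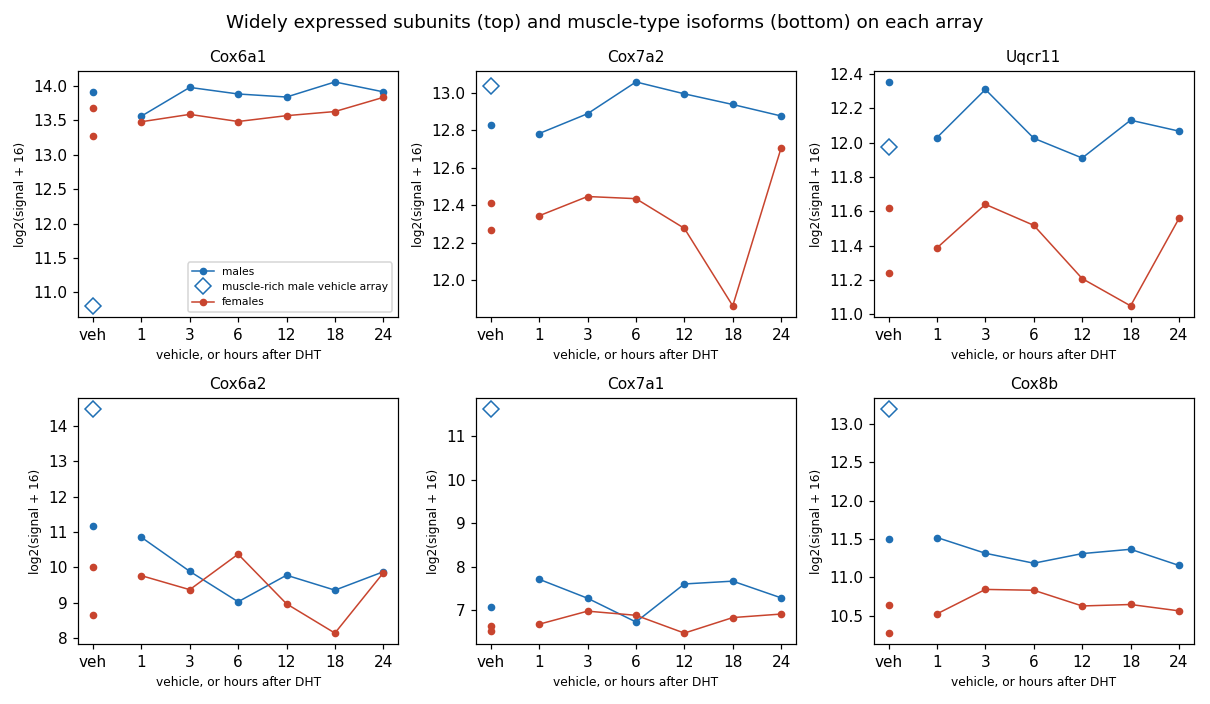
Signal of 6 subunits on each array as log2(signal + 16), with vehicle and the hours after DHT on the x axis, males in blue, females in red and the muscle-rich male vehicle array as an open diamond. Cox6a2, Cox7a1 and Cox8b have their highest value on the muscle-rich array and Cox6a1 its lowest, while female points of Cox7a2, Uqcr11 and Cox8b lie below all male points of the other 7 arrays.

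Over all complexes the muscle-rich array had the highest of the 16 signals for 53 of the 67 tested members (79.1%, against 26.4% of all genes tested). It had the lowest for 2 (2.99%, against 32.7%), Cox6a1 and Cox6b2. The muscle-rich array over the average of the 7 other male arrays gave a median ratio of 1.94 for the members and 0.899 for all genes tested. By complex the median ratios were 2.14 in complex I, 1.64 in complex II, 1.75 in complex III, 2.13 in complex IV and 1.87 in complex V. The core complex I subunit Ndufv2, which binds an iron-sulfur cluster, had 9566 there and 2131 to 2966 on the other male arrays, a ratio of 3.81. Cycs, the electron carrier cytochrome c, had 1887 against 300.1 to 595.7, a ratio of 3.87. In both cases the muscle-rich array lay above all others. Ndufs4, a complex I subunit under the filter, had 421 against 39.4 to 84.4.

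The ratio was above 1 for 60 of the 67 members (89.6%, against 43.7% of all genes tested). The 7 members below 1 were Cox6a1, Cox6b2, Ndufb3 (0.671), a membrane arm subunit of complex I, Cox8c (0.712), a complex IV form known from testis, Uqcr11 (0.902), a small subunit of complex III, Atp5d (0.912), the delta subunit of complex V, and Ndufa1 (0.920) of complex I. Just above 1 were Ndufa7 and the complex II membrane anchor Sdhd (1.05 each), Ndufb6 (1.07) and Cox7a2. Among the other forms always described, Cox4i1, the widely expressed form of subunit IV, had a ratio of 2.21, Atp5g1 had 1.47 and Atp5g2 2.08. Their further probe sets gave 0.889 for Cox4i1 (mean signal 213, against 306 for the chosen one) and 1.19 for Atp5g1. That of Atp5g2, of a low mean signal (70.7), gave 0.291. Atp5g1 and Atp5g2 encode the same proton-carrying ring subunit of complex V. Cox4i2 and Atp5g3 had no probe set with a single gene symbol.

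**Figure D2:**
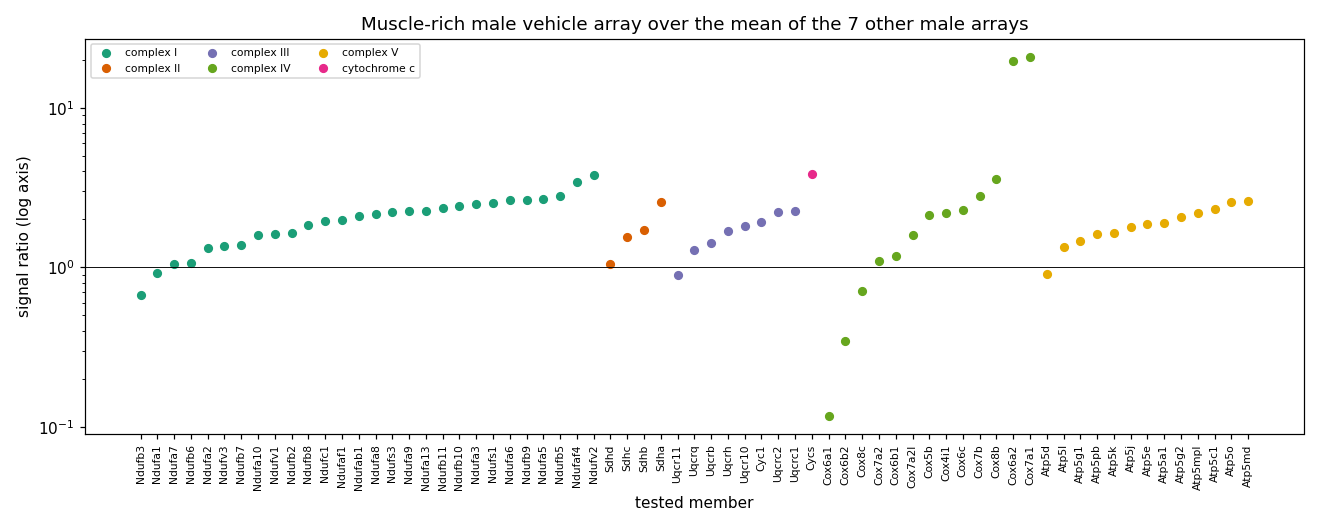
Ratio of the signal on the muscle-rich male vehicle array over the average of the 7 other male arrays for each of the 67 tested members, on a log axis, ordered by complex. Most points lie above 1, with a median of 1.94, Cox7a1 at 21.0 and Cox6a2 at 19.8 at the top and Cox6a1 at 0.117 at the bottom.

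The promoters of 4 members on which the results turn are shown, Cox6a1, Cox7a1 and Cox8b for the muscle-rich array and Uqcr11 for the sex difference below. They are the 250 bases before the gene start in RefSeq (build GRCm38.p6, gene strand), for Uqcr11 at chr10:80406822-80407071 (minus strand), Cox6a1 at chr5:115348959-115349208 (minus strand), Cox7a1 at chr7:30183921-30184170 (plus strand) and Cox8b at chr7:140900447-140900696 (minus strand). Capitals mark a match to 1 of the motifs searched.
Uqcr11: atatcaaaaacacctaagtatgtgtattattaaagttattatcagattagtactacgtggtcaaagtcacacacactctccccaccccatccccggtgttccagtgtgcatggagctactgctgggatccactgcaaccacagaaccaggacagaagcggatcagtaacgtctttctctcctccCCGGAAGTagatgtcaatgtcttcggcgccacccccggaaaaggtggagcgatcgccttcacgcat
Cox6a1: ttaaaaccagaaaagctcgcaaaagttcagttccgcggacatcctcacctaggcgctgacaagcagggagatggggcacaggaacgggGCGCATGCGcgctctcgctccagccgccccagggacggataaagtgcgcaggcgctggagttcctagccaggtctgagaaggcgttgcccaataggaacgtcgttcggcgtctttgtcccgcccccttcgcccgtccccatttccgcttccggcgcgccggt
Cox7a1: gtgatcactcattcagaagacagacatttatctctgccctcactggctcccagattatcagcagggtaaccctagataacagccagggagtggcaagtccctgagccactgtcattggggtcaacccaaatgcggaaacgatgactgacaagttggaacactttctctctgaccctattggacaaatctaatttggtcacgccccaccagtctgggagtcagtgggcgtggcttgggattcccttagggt
Cox8b: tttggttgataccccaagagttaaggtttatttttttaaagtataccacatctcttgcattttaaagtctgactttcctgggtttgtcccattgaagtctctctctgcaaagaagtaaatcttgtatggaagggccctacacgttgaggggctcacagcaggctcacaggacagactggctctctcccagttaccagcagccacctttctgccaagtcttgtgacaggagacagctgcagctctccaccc
The capitals in Uqcr11 are the site CCGGAAGT of GABPA, an ETS factor that binds many mitochondrial gene promoters, 66 bases before the start. Those in Cox6a1 are the core GCGCATGCG bound by NRF1, another such factor, 162 bases before the start. No motif searched was found in the Cox7a1 and Cox8b stretches.

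RefSeq promoters of 300 bases (250 before and 50 after the start) were matched for 59 of the 73 members. Atp5a1, Atp5mpl, Cox4i1, Cox6a2, Cox6c, Cox8c, Cyc1, Ndufa2, Ndufb9, Ndufs1, Sdhc, Uqcrb, Uqcrc2 and Uqcrq were not matched. The NRF1 core was present on either strand in 9 of the 59 (15.3%, against 1.95% of 27025 genes): Atp5g2, Atp5k, Atp5l, Cox6a1, Cycs, Ndufa8, Ndufaf4, Uqcr11 and Uqcrc1. In Uqcr11 it begins 5 bases before the start and runs past it. The GABPA site was present in Cox8a, Ndufs3, Uqcr11 and Uqcrh (6.78%, against 4.31%). The site TCAAGGTCA of the estrogen-related receptors was present in Sdhd (1.69%, against 0.466%). The androgen receptor repeat unit AGAACA was present in 10 of 59 (16.9%, against 21.3%), and its inverted repeat with 3 bases between in 0 of 59 (0.0111% of all genes). The inverted repeat contains the repeat unit, none of the other motifs contains another, and the matches are a description of these windows only.

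DHT left no tested subunit past the threshold. With limma's adjusted p, 0 of 67 members were called for the mean of the 6 times against vehicle over 16 arrays (background 0.0703% of all genes tested, and 0 members at an unadjusted p under 0.05). Over 15 arrays 0 of 67 were called (background 0.0879%, 1 member at an unadjusted p under 0.05). The direction depended on the muscle-rich vehicle array: 57 of 67 members (85.1%, against 44.6% of all genes tested) had a negative log2 change over 16 arrays, with a median of -0.25, and 35 of 67 (52.2%, against 48.8%) over 15 arrays, with a median of -0.01. In these 16 arrays the muscle markers were negative as well, 24 of 25 with a median of -0.83, and adipocyte markers positive in 15 of 16 with a median of 0.70. Over 15 arrays the medians were -0.03 for both lists.

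The 4 most negative log2 changes over 16 arrays were those of Cox6a2 (-1.48 ± 0.68, standard error), Cox7a1 (-0.88 ± 0.66), Cycs (-0.56 ± 0.33) and Ndufv2 (-0.51 ± 0.31), and without the muscle-rich array Cox6a2 was at -0.46 ± 0.40 and Cox7a1 at 0.24 ± 0.22. The 4 most positive were Cox6a1 (0.82 ± 0.45), Cox6b2 (0.36 ± 0.24), Ndufb3 (0.34 ± 0.17) and Cox8c (0.13 ± 0.20). Cox6a1 was at 0.06 ± 0.10 over 15 arrays. The members with the largest changes over 16 arrays were largely those at the ends of the muscle-rich array's ratios. That array is among the 4 vehicle arrays of this comparison, so the overlap follows from the design and is not separate evidence.

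Over 15 arrays the most positive were Atp5pb (0.41 ± 0.32), a stalk subunit of complex V, Ndufb3 (0.27 ± 0.17), Uqcrb (0.26 ± 0.10), a small subunit of complex III, and Cox7a1. After Cox6a2 the most negative were Uqcrc2 (-0.22 ± 0.19), a core subunit of complex III, Atp5o (-0.17 ± 0.18), which joins the stalk of complex V to its head, and Ndufa6 (-0.15 ± 0.15) of complex I. Uqcrb was the member with an unadjusted p under 0.05, and its adjusted p was 0.998 in limma. Its signals were 3969 and 3589 on the female vehicle arrays and 4437 to 5408 on the female DHT arrays, without overlap. On the male arrays they were 5031 on vehicle replicate 1, 7615 on the muscle-rich array and 4322 to 5911 after DHT, so that the male groups overlapped. Uqcrb was picked by this same comparison, so its signals are not further evidence.

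The other always described forms were close to 0 over 15 arrays: Cox4i1 at 0.02, Cox6b1 at -0.09, Cox6b2 at 0.05, Cox7a2 at 0.04, Cox8b at 0.07, Atp5g1 at -0.02, Atp5g2 at 0.02 and Cycs at -0.09. The precision was limited by the small number of arrays, and it was lower with the muscle-rich array than without it. Over 15 arrays the 95% interval of the mean DHT change lay within a 1.5-fold change either way for 59 of 67 members, with a median width of 0.28 log2 units to each side. Over 16 arrays it did so for 21 of 67, with 0.45 to each side.

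Single times gave the same count. No member was called at any of the 6 times over 16 or 15 arrays. The background at 1 h was 0% for both, at 3 h 0.0176% for both, at 6 h 0.0528% and 0.0879%, at 12 h 0.0528% and 0.0703%, at 18 h 0% and 0.0352%, and at 24 h 0% and 0.0176%, for 16 and 15 arrays in turn. Unadjusted p-values under 0.05 were found for 0, 0, 1, 0, 2 and 2 members at the 6 times in order over 16 arrays, and for the same numbers over 15. The F test over the 6 times called 0 of 67 as well (background 0.0528% over 16 arrays and 0.0879% over 15), with 0 members at an unadjusted p under 0.05. All 6 comparisons share the vehicle arrays, so they are not separate evidence.

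**Figure D3:**
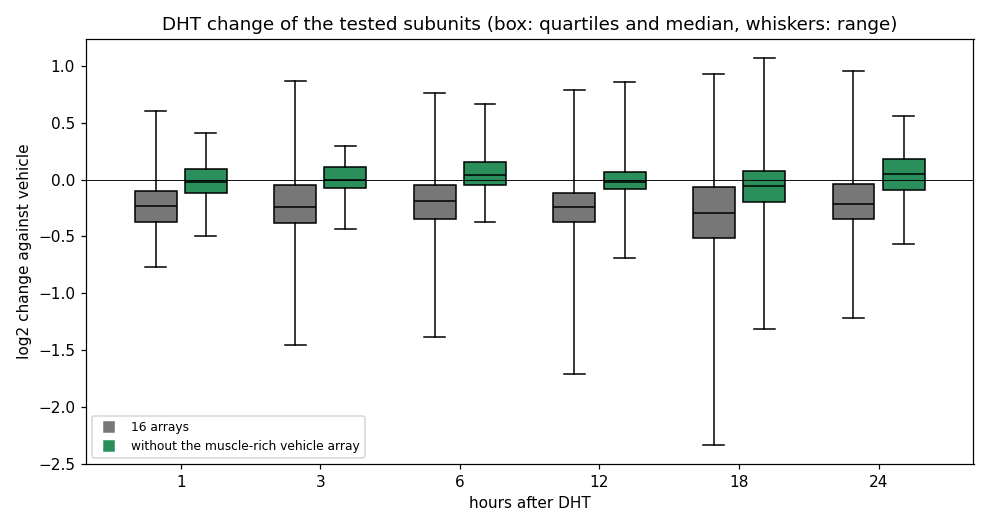
Log2 change against vehicle of the 67 tested members at each DHT time, as boxes from the lower to the upper quartile with the median and whiskers over the whole range, for 16 arrays in grey and 15 arrays in green. The medians lie between -0.30 and -0.18 over 16 arrays and between -0.06 and 0.05 over 15.

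Over 16 arrays Cox6a2 had the most negative log2 change at each time, from -0.77 ± 1.02 at 1 h to -2.33 ± 1.02 at 18 h, and Cox6a1 the most positive, from 0.60 ± 0.67 at 1 h to 0.96 ± 0.67 at 24 h. Cox7a1 was among the 4 most negative at each time (-0.72 to -1.16) and Cox6b2 among the 4 most positive (0.23 to 0.49). The rest of the 4 most negative were Uqcrc2 and Cycs at 1 h, Cycs and Cox4i1 at 3 h, Cox4i1 and Uqcrc2 at 6 h, Atp5o and Cycs at 12 h, Ndufa6 and Ndufv2 at 18 h, and Ndufa10 and Cox6b1 at 24 h, at -0.55 to -0.78. The rest of the 4 most positive were Ndufb3 and Cox8c at 1 h, Uqcr11 and Ndufa7 at 3 h, Ndufb3 and Atp5d at 6 h, Atp5pb and Cox6b1 at 12 h, Atp5pb and Ndufa1 at 18 h, and Ndufb3 and Uqcrb at 24 h, at 0.12 to 0.78.

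Without the muscle-rich array Cox6a2 at 18 h stood at -1.31 ± 0.56 (limma adjusted p = 0.706), with signals of 638.5 in the male and 266 in the female, against 2296 on the remaining male vehicle array and 390 and 1016 on the female ones. The female 18 h array lay below all 3 vehicle arrays, and the male one between the female vehicle arrays. Atp5pb was at 1.07 ± 0.45 at 18 h, with 391 in the male and 386 in the female, against 86.7 on the male vehicle array and 346 and 190 on the female ones. Ndufb3 was at 0.67 ± 0.24 at 6 h and 0.56 ± 0.24 at 24 h. Its signal of 6003 in the male at 6 h was the highest of all arrays, and in the female the highest was 3487 at 24 h. None of the 3 genes passed the threshold.

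The 4 most negative and 4 most positive members at each time without the muscle-rich array, none of them past the threshold, differed from time to time. At 1 h the negative ones were Uqcrc2, Ndufb7, Atp5e and Ndufa7 (-0.50 to -0.27), and the positive ones Atp5pb, Cox7a1, Atp5mpl and Sdha (0.41 to 0.32). At 3 h they were Cox6a2, Ndufa10, Cox4i1 and Atp5o (-0.43 to -0.21), and Uqcrb, Cox7a1, Sdhb and Atp5pb (0.29 to 0.21). At 6 h they were Cox4i1, Uqcrc2, Cox6b1 and Cox6a2 (-0.37 to -0.36), and Ndufb3, Atp5mpl, Ndufa5 and Uqcrb (0.67 to 0.29). Uqcrb was thus among the 4 most positive at 3 and 6 h, and it was so again at 12 and 24 h. At 12 h the negative ones were Cox6a2, Atp5o, Uqcr11 and Ndufa6 (-0.69 to -0.19), and the positive ones Atp5pb, Cox6b1, Uqcrb and Atp5g2 (0.86 to 0.29). At 18 h Cox6a2 was followed by Ndufa6, Ndufab1 and Atp5c1 (-0.47 to -0.40), and Atp5pb by Ndufa1, Cox6b1 and Cox7a1 (0.55 to 0.41). At 24 h they were Cox6b1, Ndufa10, Ndufa1 and Ndufc1 (-0.57 to -0.32), and Ndufb3, Uqcrb, Ndufs3 and Atp5j (0.56 to 0.28). Cox6a2 was thus among the 4 most negative at 3, 6, 12 and 18 h, and Cox6b1, negative at 6 and 24 h, was positive at 12 and 18 h.

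The late times (12, 18 and 24 h) did not differ from the early ones (1, 3 and 6 h) past the threshold for any member: 0 of 67 were called over 16 arrays (background 0%, 0 at an unadjusted p under 0.05) and over 15 (background 0.0352%, 1 at an unadjusted p under 0.05). The median difference was -0.04. The most negative were Cox6a2 (-0.55), Ndufab1 (-0.28), the acyl carrier protein of complex I, Ndufc1 (-0.23) and Uqcrc1 (-0.23), and the most positive Atp5pb (0.47), Atp5k (0.30), Cox4i1 (0.29) and Cox6b1 (0.28). Uqcrc1, the other core subunit of complex III, had the smallest limma adjusted p over 15 arrays, 0.591. Its signals were 4469 to 4959 early and 4023 to 4288 late in males, and 3671 to 3843 early and 2681 to 3371 late in females. In each sex the late arrays lay below the early ones. Uqcrc1 was picked by this same comparison, so this order is not further evidence.

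Within females, whose arrays do not include the muscle-rich one, 0 of 67 members were called for DHT (background 0% with the spread of 16 arrays and 0.0528% with that of 15, with 0 and 1 members at an unadjusted p under 0.05), and the median was -0.02. The most positive were Ndufb3 (0.38), Uqcrb (0.35), Atp5d (0.31) and Cox8b (0.22), and the most negative Ndufa1 (-0.42), Uqcrc2 (-0.41), Cox7b (-0.22) and Ndufb7 (-0.20). Within males 0 of 67 were called with 16 arrays (background 0.0176%) and with 15 (background 0%), with 14 and 4 members at an unadjusted p under 0.05. Of all 5686 genes tested 1182 had such a p in limma with 16 arrays, a similar share to that of the members. The male median was -0.51 with the muscle-rich array, where 60 of 67 were negative, and 0.01 without it, where 31 were. With it Cox6a2 was at -3.03, Cox7a1 at -1.97, Cox8b at -1.04, Ndufv2 at -0.95 and Cox6a1 at 1.52. Atp5pb, Cox6b2 and Ndufa1 were the other 3 of the most positive, at 0.37 to 0.52. Without it Cox7a1 was at 0.31, Cox8b at -0.19 and Cox6a1 at -0.04, and the value then rests on 1 male vehicle array.

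The 4 members at either end of the male values without the muscle-rich array were partly others. The most positive were Atp5pb (1.36 ± 0.43), Ndufa1 (0.84 ± 0.37), Ndufs3 (0.40 ± 0.17) and Ndufa2 (0.40 ± 0.25), and the most negative Cox6a2 (-1.38 ± 0.60), Ndufa10 (-0.47 ± 0.23), Atp5e (-0.43 ± 0.28) and Ndufc1 (-0.36 ± 0.33). Atp5pb, Ndufs3, Cox6a2 and Ndufa1 were the 4 with an unadjusted p under 0.05 in limma (0.0091, 0.034, 0.043 and 0.045), and their adjusted p was 1. Atp5pb had a signal of 86.7 on the remaining male vehicle array and 139 to 391 on the 6 male DHT arrays. Ndufa1 had 79.0 there and 128 to 180 after DHT, Ndufs3 3179 and 3785 to 4673, and Cox6a2 2296 and 505 to 1829. In all 4 the remaining vehicle array lay outside the male DHT range, while the muscle-rich array lay within it for Atp5pb (387) and Ndufa1 (133). These genes were picked by a comparison that rests on this same vehicle array, so its place outside the range is not further evidence.

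The difference between the sexes in the DHT change was not called for any member (background 0% over 16 and over 15 arrays, with 4 and 2 of 67 members at an unadjusted p under 0.05). Over 16 arrays 365 of all 5686 genes tested had an unadjusted p under 0.05 in limma. The median of female minus male was 0.49 with 16 arrays and 0.01 with 15. Over 16 arrays the most positive were Cox6a2 (3.10), Cox7a1 (2.17), Cox8b (1.25) and Ndufaf4 (0.87), and the most negative Cox6a1 (-1.39), Ndufa1 (-0.94), Atp5pb (-0.50) and Cox6b2 (-0.30). Over 15 arrays the most negative were Atp5pb (-1.48 ± 0.54), Ndufa1 (-1.27 ± 0.47), Uqcrc2 (-0.53 ± 0.37) and Cox7b (-0.41 ± 0.35), and the most positive Cox6a2 (1.45 ± 0.75), Atp5e (0.58 ± 0.35), Ndufa10 (0.57 ± 0.29) and Atp5d (0.54 ± 0.39). Atp5pb and Ndufa1 were the 2 with an unadjusted p under 0.05 in limma (0.019 and 0.020), and their adjusted p was 0.9996. Cox7a1 was at -0.11 and Cox6a1 at 0.16. These values rest on the same single male vehicle array.

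The subunits differed between the sexes. Over 16 arrays 6 of 67 members were lower in females past limma's threshold, and 0 were higher. The background was 1.13% of all genes tested lower and 4.63% higher. An unadjusted p under 0.05 in limma, in either direction, was found for 30 members and for 1134 of all 5686 genes tested. Over the 15 arrays without the muscle-rich one 26 of 67 were lower and 0 higher, with a background of 7.76% lower and 8.83% higher. Here 35 members and 1692 of all 5686 genes tested had an unadjusted p under 0.05 in limma, in either direction. The 26 lower members include Cox7a1, which passed the filter on low signal only with the muscle-rich array. The median log2 difference of females minus males was -0.38 over 16 arrays and -0.27 over 15, while that of all genes tested was 0.02 and 0.00. The sign was negative for 61 and 60 of the 67 (91.0% and 89.6%, against 47.8% and 49.4% of all genes tested).

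**Figure D4:**
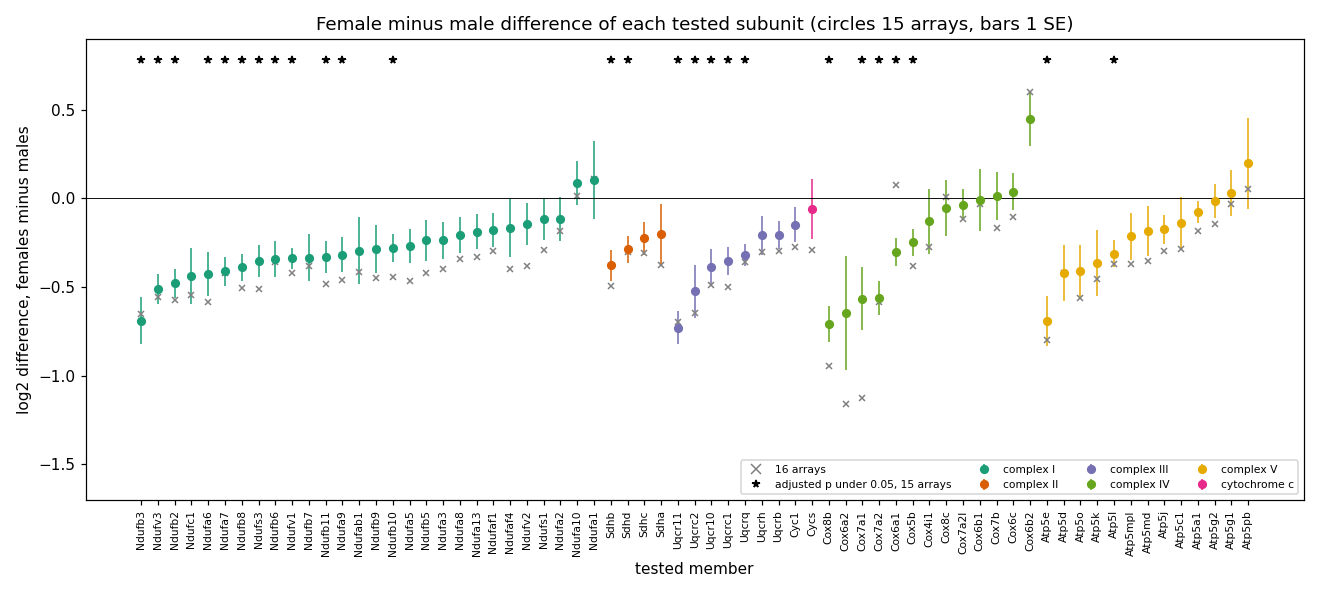
Log2 difference of females minus males for each tested member, ordered by complex, with circles and 1 standard error for 15 arrays, crosses for 16 arrays and stars for members past limma's adjusted p of 0.05 over 15 arrays. Of 67 circles 60 lie below 0, and 26 carry a star.

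In complex I 12 of 28 members were lower over 15 arrays, with a median difference of -0.29 over the complex. Ndufb3 had signals of 2592 to 6003 in the 7 males (median 3675) and 1603 to 3487 in the 8 females (median 2325), and the ranges overlapped. Its difference was -0.69 ± 0.13 over 15 arrays (limma adjusted p = 0.0040) and -0.65 ± 0.15 over 16 (limma adjusted p = 0.0274). The supernumerary subunit Ndufv3 had 1786 to 2338 in males (median 2003) and 1240 to 1589 in females (median 1444), without overlap. Its difference was -0.51 ± 0.09 over 15 arrays and -0.56 ± 0.11 over 16, past the threshold in both. Ndufb2, a membrane arm subunit, had 4758 to 6219 in males (median 5666) and 3238 to 4629 in females (median 4048), again without overlap. Ndufb2 was at -0.48 ± 0.08 over 15 arrays and -0.58 ± 0.14 over 16, past the threshold in both. A further Ndufb2 probe set of similar mean signal gave -0.22 over 15 arrays.

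Ndufa6 was lower over 15 arrays but not over 16, at -0.43 ± 0.12. The other 8 of complex I past the threshold over 15 arrays were Ndufa7, Ndufa9, Ndufb6, Ndufb8, Ndufb10, Ndufb11 and the core subunits Ndufs3 and Ndufv1, at -0.41 to -0.28. Of the 4 tested core subunits Ndufv1 holds the NADH site, and its signals were 7262 to 8321 in males (median 7919) and 5317 to 6759 in females (median 6431), without overlap. The other core subunits Ndufs1 and Ndufv2 were at -0.12 and -0.15 and did not pass. Ndufa1 and Ndufa10 were the complex I members with a positive difference, at 0.10 and 0.08.

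In complex II the iron-sulfur subunit Sdhb (-0.38 ± 0.09) and the membrane anchor Sdhd (-0.29 ± 0.08) were lower over 15 arrays, and over 16 neither passed. Sdhd had 4987 to 6307 in males (median 5605) and 4030 to 4924 in females (median 4670), without overlap. Sdhc and the flavoprotein Sdha, at -0.22 and -0.20, did not pass.

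Complex III had 5 of 8 members lower over 15 arrays and 8 of 8 with a negative sign, by the chosen probe sets. A further Cyc1 probe set (mean signal 5707) gave 0.51 over 15 arrays, against -0.16 for the chosen one (mean signal 8916). On the muscle-rich array the ratios of these 2 probe sets to the other male arrays were 0.607 and 1.94. Uqcr11 had the smallest adjusted p of all members. Its signals were 3834 to 5219 in the 7 males (median 4276, mean 4454 ± 508, SD) and 2102 to 3176 in the 8 females (median 2789, mean 2717 ± 400, SD), and the muscle-rich array stood at 4016, within the male range. The sexes did not overlap on any of the 16 arrays. The difference was -0.73 ± 0.09 over 15 arrays (limma adjusted p = 0.000225) and -0.70 ± 0.12 over 16 (limma adjusted p = 0.0044). Uqcrc2 (-0.52 ± 0.15), Uqcr10 (-0.39 ± 0.10), Uqcrc1 (-0.35 ± 0.08) and Uqcrq (-0.32 ± 0.06) were lower over 15 arrays only. Uqcrc2 overlapped, with 3019 on a female vehicle array and 1311 to 1786 on the other females, against 1958 to 2779 in males.

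Complex IV had 5 of 13 lower over 15 arrays: Cox8b (-0.71 ± 0.10), Cox7a1 (-0.57 ± 0.18), Cox7a2 (-0.56 ± 0.09), Cox6a1 (-0.30 ± 0.08) and Cox5b (-0.25 ± 0.08), a subunit on the matrix side. Cox8b had 2265 to 2918 in males (median 2529) and 1223 to 1821 in females (median 1571), and Cox7a2 had 7035 to 8522 (median 7574) and 3705 to 6671 (median 5305). In both the sexes did not overlap. A further Cox8b probe set gave -0.39. Cox7a2 passed over 16 arrays as well (-0.58 ± 0.12). Cox6a1 turned with the muscle-rich array, from 0.07 ± 0.39 over 16 arrays to -0.30 ± 0.08 (limma adjusted p = 0.020) over 15. Cox7a1 (limma adjusted p = 0.0489 over 15 arrays) had the largest p of those past the threshold. It passed the filter on low signal only with the muscle-rich array, and its female signals (73.1 to 111) all lay under 116.03.

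Cox6a2 was at -0.65 ± 0.32 over 15 arrays and did not pass. Cox6b2 was the member with the largest positive difference, 0.45 ± 0.15, and did not pass (limma adjusted p = 0.0642). Another of its probe sets, of low signal, gave -0.84. Cox4i1 (-0.13), Cox6b1 (-0.01), Cox6c (0.04), Cox7b (0.01) and Cox8c (-0.05) did not pass either.

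In complex V 2 of 13 members were lower over 15 arrays. Atp5e, the epsilon subunit of the rotor, had 2808 to 4384 in males (median 3088) and 1623 to 3063 in females (median 2032), with overlap. Its difference was -0.69 ± 0.14 over 15 arrays (limma adjusted p = 0.0057) and -0.80 ± 0.19 over 16 (limma adjusted p = 0.0279). Atp5l, a membrane subunit, was at -0.31 ± 0.08 over 15 arrays. The head subunit Atp5a1 (-0.08), Atp5c1 (-0.14), and the ring subunits Atp5g1 (0.03) and Atp5g2 (-0.01) did not pass. The probe sets of Atp5d ran from -0.55 to 0.32. Cycs was at -0.06 ± 0.17 and did not pass.

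All 8 females lay below all 7 males for 9 of the 67 members (13.4%, against a background of 2.83%): Cox5b, Cox7a2, Cox8b, Ndufb2, Ndufv1, Ndufv3, Sdhd, Uqcr11 and Uqcrc1. None lay above (background 3.92%). At matched DHT times the female array was lower at 6 of 6 times for 26 of 67 members (38.8%, against a background of 9.43%), and higher at 6 of 6 for 0. These times use no vehicle array. The means over all tested members were 11.04 to 11.18 on the 7 male arrays and 10.67 to 10.96 on the 8 female arrays (log2 signal), with the lowest at 18 h in females and 12.00 on the muscle-rich array.

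**Figure D5:**
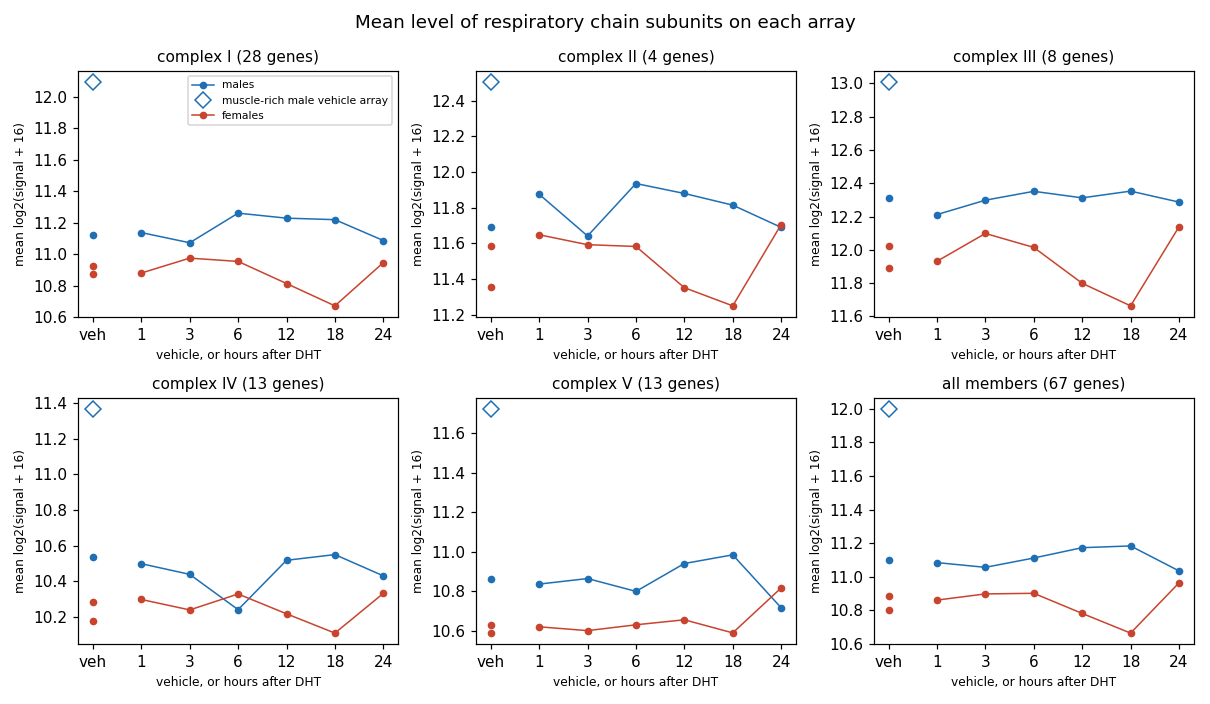
Mean log2(signal + 16) of the tested members of each complex and of all 67 members on each array, with vehicle and hours after DHT on the x axis, males in blue, females in red and the muscle-rich male vehicle array as an open diamond. For complexes I and III all female means (up to 10.97 and 12.14) lie below all male means (from 11.07 and 12.21), and for complexes II, IV and V the sexes overlap.

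Markers of cell types moved with sex as well, and here too more calls were made without the muscle-rich array. Over 16 arrays the lists gave 0 of 16 adipocyte markers (limma, 2 at an unadjusted p under 0.05, median -0.10), 6 of 13 macrophage markers higher, 1 of 5 brown adipocyte markers lower and 1 of 25 skeletal muscle markers lower, beside backgrounds of 1.13% lower and 4.63% higher. Over 15 arrays, with backgrounds of 7.76% lower and 8.83% higher, 8 of 16 adipocyte markers were lower in females and 0 higher, and their mean log2 level was 12.06 to 12.43 in females and 12.58 to 12.82 in males, without overlap. Macrophage markers were higher for 10 of 13 and lower for 0, with 10.95 to 11.36 in females and 10.35 to 10.85 in males, again without overlap. Of 5 tested brown adipocyte markers 4 were lower, at 8.14 to 9.26 in females and 9.40 to 10.22 in males, but this list holds Cox7a1 and Cox8b. Ucp1, the proton carrier that defines brown fat, had signals of 18.7 to 367 in females and 350.0 to 1422 in males. Skeletal muscle markers were lower for 8 of 25 and higher for 0, at 9.15 to 10.31 in females and 9.48 to 10.46 in males.

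The muscle list had its highest female levels at 1 and 6 h, of 10.16 and 10.31. No defining marker of these lists lay at 0. The share of each cell type in the members' sex difference cannot be told apart here, because the adipocyte and macrophage levels separate the sexes completely. With the muscle marker level as a covariate over 16 arrays 10 of 67 members were called, all lower in females (background 4.91% lower), with a median of -0.19. With the adipocyte or the macrophage level as a covariate over 15 arrays 0 were called by limma (7 and 1 at an unadjusted p under 0.05). In these fits hardly any gene was called (background 0.0176% and 0.0352%), the medians were 0.31 and 0.07, and the median standard errors rose to 0.49 and 0.50 from 0.10.

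The count of 26 rests on all of the 15 arrays. It was 16 or 17 without either array of 6, 12 or 18 h, including the female 12 h array with pancreas markers (17), and 20 to 26 without any other single array except the remaining male vehicle array, which cannot be left out of this fit. Of all genes tested 5.4 to 5.63% were lower in the fits with 16 or 17 members called, and 5.73 to 8.42% in the others. An array left out at a DHT time also removes its match in the other sex from the sex contrast. With the 12 DHT arrays alone, where the muscle-rich array has no part, 18 of 67 members were called lower and 0 higher (background 5.87% lower).

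Other mitochondrial genes gave a mixed picture. Over 16 arrays limma called 0 of 15 genes of the tricarboxylic acid cycle, 0 of 11 assembly factors and 0 of 8 regulators of mitochondrial genes (6, 5 and 2 at an unadjusted p under 0.05), and 1 of 11 carriers and outer membrane proteins, Ucp3, which was lower in females (background 1.13% lower). The counts that follow are over 15 arrays, where the background was 7.76% lower. Of 15 tested genes of the tricarboxylic acid cycle, which feeds electrons to the chain, 5 were lower in females and 0 higher, with a median of -0.19: Idh3a (-0.54 ± 0.09), Idh2 (-0.52 ± 0.08), Pdha1 (-0.36 ± 0.08), Mdh2 (-0.34 ± 0.09) and Fh1 (-0.25 ± 0.08). Of 11 assembly factors 2 were lower, Uqcc1 for complex III (-0.45 ± 0.12) and Surf1 for complex IV (-0.40 ± 0.09), with a median of -0.27. Of 11 carriers and outer membrane proteins 2 were lower, Ucp3 (-0.51 ± 0.12) and the carnitine carrier Slc25a20 (-0.30 ± 0.08). Of 8 regulators of mitochondrial genes 0 were called (3 at an unadjusted p under 0.05 in limma), with a median of 0.02: Esrra was at -0.36 ± 0.12 and Gabpa at 0.41 ± 0.14. For DHT over all times 0 genes of these 4 lists were called by limma over 16 or 15 arrays, and 3 and 1 had an unadjusted p under 0.05, all of them regulators.

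Across the 15 arrays the members varied about as much as other genes: the median standard deviation of log2 signal was 0.262 for members and 0.282 for all genes tested. The least and the most variable were Ndufaf1 (0.151) and Ndufb3 (0.504) in complex I, Sdhd (0.179) and Sdha (0.335) in complex II, Uqcrq (0.189) and Uqcr11 (0.414) in complex III, Cox7a2l (0.122) and Cox6a2 (0.795) in complex IV, and Atp5a1 (0.108) and Atp5pb (0.606) in complex V. Atp5a1 had 7325 to 8392 in males and 6651 to 8609 in females. Atp5pb had 86.7 to 391 in males and 126 to 386 in females, and both sexes covered nearly the same range.

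Within each sex the members were set against the muscle marker level. Over the 8 female arrays 48 of 67 members had a positive Pearson correlation, with a median r of 0.485, and over the 7 male arrays without the muscle-rich one 17 of 67, with a median r of -0.28. Of these 134 relations 0 passed an adjusted exact permutation test, by Pearson's r or Spearman's rho, with 10 and 4 at an unadjusted p under 0.05 in females and males.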

How the data were processed

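The arrays of 16 samples were read as deposited: linear intensities, 1 per probe set, which the authors had computed in MAS5, per the submitters' processing notes (version not given in the sources used here). Each array has the same trimmed mean signal of 500, so a level is relative to its whole array, and a list that changes with many genes is measured against a shifted scale. Of 12488 probe sets 66 controls were left out. Genes were named from GEO's platform annotation, from probe sets with 1 symbol. 8 probe sets that pair a member with another symbol were not used. Of the 73 chosen probe sets 18 carry a suffix (11 f, 3 r, 2 s, 1 g and 1 i) that marks possible cross-hybridisation or incomplete probe rules, among them those of Cox6a1, Cox8b, Atp5e and Ndufb2. 21 members had further probe sets.

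The analysis scale was log2(signal + 16), on which changes of dim genes come out too small. The filter was a mean signal of 116.03 over all 16 arrays (averaged in log2 units), the 40th percentile. The model, in limma 3.58.1 (lmFit and eBayes with a trend, R 4.3.3), held sex and time factors (8 residual degrees of freedom with 16 arrays, 7 with 15). A second fit held a sex by DHT term. Tests were two-sided, with Benjamini-Hochberg adjustment over 5686 genes and a threshold of 0.05. Times in the DHT comparisons had 2 arrays against 4. Replicates were numbered by accession, which pairs nothing. Values after ± are limma's standard errors unless named SD. In data simulated for 15 arrays with 200 of 5686 genes changed, the sex comparison called 31.5% of changes of 0.5 log2 units and 90.0% of changes of 1.0, and DHT over all times 2% and 83.0%. These rates depend on how many genes change and apply to the simulated setting only. In the data 943 genes were called for sex and 5 for DHT over all times with 15 arrays. The number of arrays limits the precision.

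In each comparison every member past the threshold was named, or the 10 largest each way where over 20 passed, and otherwise the 4 largest and 4 smallest log2 changes. Isoforms and the most and least variable member of each complex were always named. Further members past the threshold were named for completeness. The members, lists and tests were chosen with earlier results of these data known. Alternatives were other pseudocounts (1 and 64), no filter, quantile normalization, the mean of all probe sets, eBayes without a trend, array weights, DHT as a single group, marker levels as covariates and leaving out arrays. The fits to the 12 DHT arrays alone, with adipocyte or macrophage level as a covariate, and leaving an array out of the 15 were added after seeing the data. RefSeq promoters were searched with Python 3.11.15.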

Additional observations from a re-analysis of the deposited data

Results flagged for a closer look

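Of 64 groups of values tested for a sample far from the others, 21 held one, and chance alone gives about 1 in 20 groups. In 16 of the 21 the array was the muscle-rich male vehicle array. Among the 8 male arrays it had the highest mean log2 signal of complex I (12.09, others up to 11.26), complex II (12.51, up to 11.94), complex III (13.01, up to 12.35), complex IV (11.37, up to 10.55) and complex V (11.72, up to 10.98). It was also highest among males for Cox6a2 (14.47), Cox7a1 (11.63), Cox8b (13.19), Atp5g2 (10.34) and Cycs (10.89), and lowest for Cox6a1 (10.81) and Cox6b2 (5.97), all in log2 signal. Among the 4 vehicle arrays it was highest for Cox7a1 (11.63), Cycs (10.89) and Atp5g1 (8.14) and lowest for Cox6b2 (5.97).

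The other 5 came from other arrays. The male DHT array at 6 h was lowest of 7 males for the complex IV mean (10.24, others 10.43 to 10.55) and for Atp5g1 (7.21, others 7.56 to 7.81). The male array at 1 h was lowest for Cycs (8.30, others 8.87 to 9.26). Among females the 24 h array was highest for the complex V mean (10.82, others up to 10.65) and the 6 h array for Cox6b2 (8.07, others up to 7.74).

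For Cox8b every female DHT array and every male DHT array moved in opposite directions from the vehicle mean of their sex over 16 arrays, with means of 0.22 in females and -1.04 in males and a difference of 1.25. This pattern was picked out by signs alone. In limma's sex by DHT term Cox8b had an adjusted p of 0.594 over 16 arrays, and without the muscle-rich array the difference was 0.41.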

How the results depend on the processing

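The 6 members lower in females over 16 arrays became 28 (27 lower) with array weights, 19 (18 lower) with DHT as a single group, 10 with muscle level as a covariate, 18 with the 12 DHT arrays alone and 0 with adipocyte or macrophage level as a covariate over 15 arrays (7 and 1 at an unadjusted p under 0.05 in limma). Of all 5686 genes tested, 64 were called lower over the 16 arrays. The number was 546 with array weights, 186 with DHT as a single group, 279 with muscle level and 334 with the 12 DHT arrays alone. With adipocyte and macrophage level it was 0 and 1. Leaving out single arrays gave 2 to 26 members, the highest without male vehicle replicate 2 (441 of all genes tested lower). The count was 2 or 3 without the 1, 6, 12 or 18 h array of either sex or female vehicle replicate 2 (26 to 45 of all genes tested lower). From the 26 of the 15 arrays, leaving out 1 array gave 16 to 26 (5.4 to 8.42% of all genes tested lower). The DHT response in males ranged from 0 to 51 members and the sex difference of the response from 0 to 42. The highest counts arose without male vehicle replicate 1. There the muscle-rich array is the only male vehicle array and is assumed to vary like the other groups. No share of all genes tested is given beside these highest counts. They therefore do not show a response particular to the subunits, and no conclusion is drawn from them. For DHT over all times, each time, late against early and the F test, none of the alternatives moved the count of 0.

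The sex difference of Cox6a1 (0.07 over 16 arrays) was -0.30 without male vehicle replicate 2 and -0.28 over the 12 DHT arrays. With adipocyte level as a covariate it was 0.57 for Cox7a2 and 0.11 for Ndufb3, and with macrophage level 0.26 for Cox7a2, 0.049 for Ndufb2, 0.26 for Ndufb3 and 0.071 for Uqcr11. These levels separate the sexes, and the cause was not tested. DHT as a single group gives no value for single times, late against early or the F test. No paired analysis by replicate number was possible because the labels carry none. The sexes are matched by DHT time alone, through the time factor of the model.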

Other observations

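On the muscle-rich array the other mitochondrial lists had median ratios to the 7 other male arrays above 1, as the subunits had. The median was 1.71 for 15 genes of the tricarboxylic acid cycle and 1.44 for 11 assembly factors. It was 1.44 for 8 regulators and 2.81 for 11 carriers and outer membrane proteins, beside 12.8 for 25 skeletal muscle markers and 0.899 for all genes tested. In the order of these 4 lists, 14 of 15, 8 of 11, 6 of 8 and 9 of 11 genes had a ratio above 1 (43.7% of all genes tested). Of the assembly factors 2, and of the regulators 2, had their lowest signal of all arrays there (18.2% and 25%, against 32.7% of all genes tested). Ckmt2, the mitochondrial creatine kinase of striated muscle, had a signal of 12443 there, against a mean of 212 ± 103 (SD, n = 7) on the other male arrays. Slc25a4, the ADP/ATP carrier of heart and muscle, had 19985 against 4909 ± 435 (SD, n = 7). Slc25a5, the more widely expressed ADP/ATP carrier, had 597 against 1363 ± 97.5 (SD, n = 7), an order opposite to Slc25a4, as in the pair Cox6a2 and Cox6a1. Sucla2, a subunit of succinate-CoA ligase, had 7312 against 2295 ± 206 (SD, n = 7), and Pdhb, a subunit of pyruvate dehydrogenase, had 5802 against 7089 ± 923 (SD, n = 7). These values compare a single array with 7 others and carry no test.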
